A study of Mus musculus with 24 samples.

Results

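The 9 genes described here code for proteins that start, receive and pass on the interferon signal. They are the ligand Ifnb1, the receptor chains Ifnar1, Ifnar2 and Ifngr1, the signal transducer Stat2 and the interferon regulatory factors (IRFs) Irf1, Irf3, Irf7 and Irf9. They were chosen by name among the protein-coding genes of the count table, and all 9 were found among its 56748 genes, of which 21970 are listed as protein-coding. RNA was sequenced from endothelial cells of mouse liver, isolated from C57BL/6 mice of 3 months either by Cd31 (the general endothelial population) or by Cd146 (intended to be liver sinusoidal endothelial cells). Each population was cultured and transduced with 1 of 4 lentiviral constructs, and RNA was taken 1 week after transduction. P16Ink4a is a cell cycle inhibitor and a marker of senescence. It was silenced with a small hairpin RNA (P16 shRNA), for which a hairpin without a target (nc shRNA) in the same plasmid served as control. It was overexpressed as a fusion with GFP (P16), for which the plasmid lacking the insert (empty vector) served as control, so the 2 controls differ in their plasmid. Every group therefore carried a lentiviral construct, and no untransduced cells are among the 24 libraries, 3 in each of the 8 groups. The question is whether silencing or overexpression of P16Ink4a altered the transcripts of these genes in either population.

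Type I interferons such as interferon beta bind a receptor made of the chains Ifnar1 and Ifnar2, whereas interferon gamma binds the receptor that contains Ifngr1. The type I receptor activates Janus kinases, which phosphorylate STAT proteins, and Stat2 and Irf9 are parts of the complex ISGF3, which then binds the interferon-stimulated response element (ISRE) of its target genes. Irf3 is present in resting cells and is activated by sensors of nucleic acids to switch on Ifnb1, whereas Irf7 is itself made in response to interferon and extends the response to further interferon genes. Irf1 is a classical target of interferon gamma, whose STAT dimers bind the gamma-activated site (GAS). Endothelial cells of the liver carry interferon receptors and respond to both types of interferon.

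The promoters of the 9 genes were read from RefSeq (assembly GRCm38.p6) as windows from 250 bases before to 50 bases after each annotated start. All 9 genes matched, with 11 windows, since Irf1 and Irf9 each have more than 1 annotated start. Windows were searched on both strands for the ISRE in its simple form, GAAA and GAAA separated by any 2 bases, and for the GAS in the form TTC and GAA separated by any 3 bases. The windows below belong to the genes whose transcripts differed most between the hairpins, so that the presence or absence of these letters can be seen directly. Capitals mark a match.
Stat2, chr10:128270248-128270547, plus strand: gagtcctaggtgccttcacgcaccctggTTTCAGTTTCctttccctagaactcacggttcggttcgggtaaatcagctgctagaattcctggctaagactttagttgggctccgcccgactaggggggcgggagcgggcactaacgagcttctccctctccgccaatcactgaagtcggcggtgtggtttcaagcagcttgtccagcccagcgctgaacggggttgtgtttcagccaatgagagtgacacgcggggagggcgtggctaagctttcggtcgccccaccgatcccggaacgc
Irf7, chr7:141266375-141266674, minus strand: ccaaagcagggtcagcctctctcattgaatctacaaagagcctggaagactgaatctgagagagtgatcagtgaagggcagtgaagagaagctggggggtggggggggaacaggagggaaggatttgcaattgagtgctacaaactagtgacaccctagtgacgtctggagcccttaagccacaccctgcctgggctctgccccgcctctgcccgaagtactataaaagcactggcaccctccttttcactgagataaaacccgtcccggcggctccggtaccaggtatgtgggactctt
Irf9, chr14:55603735-55604034, plus strand: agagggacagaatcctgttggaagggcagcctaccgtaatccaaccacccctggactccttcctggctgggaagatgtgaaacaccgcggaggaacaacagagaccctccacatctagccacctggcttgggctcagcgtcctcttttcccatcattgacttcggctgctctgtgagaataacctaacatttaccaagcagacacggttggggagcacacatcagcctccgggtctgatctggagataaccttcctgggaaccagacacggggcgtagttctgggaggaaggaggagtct
Irf9, second window, chr14:55604329-55604628, plus strand: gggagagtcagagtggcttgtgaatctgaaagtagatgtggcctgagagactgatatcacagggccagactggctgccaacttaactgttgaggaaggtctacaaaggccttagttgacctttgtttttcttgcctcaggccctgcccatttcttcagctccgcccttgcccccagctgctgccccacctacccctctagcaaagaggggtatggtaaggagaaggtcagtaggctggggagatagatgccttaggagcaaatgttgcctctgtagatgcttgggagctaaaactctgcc
Irf1, chr11:53769764-53770063, plus strand: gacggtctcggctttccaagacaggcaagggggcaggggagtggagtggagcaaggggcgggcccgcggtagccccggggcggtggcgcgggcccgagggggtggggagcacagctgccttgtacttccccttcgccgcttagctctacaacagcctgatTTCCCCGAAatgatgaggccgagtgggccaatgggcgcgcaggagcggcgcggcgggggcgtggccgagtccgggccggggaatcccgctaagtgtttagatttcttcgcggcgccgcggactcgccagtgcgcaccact
The ISRE was found in the window of 1 of the 9 genes, Stat2, on the reverse strand 222 bases before the start. Over all genes with a window, 1079 of 27025 (3.99%) held it. The windows of Irf7 and Irf9 above held neither motif in this form, which says only that these letters do not occur there.

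The GAS was found in 3 of the 9 genes, against 2582 of 27025 genes (9.55%) overall. In Irf1 it lay 90 bases before the start and is seen in the window above. The other window of Irf1 held neither motif and is not printed. The receptor chains Ifnar2 and Ifnar1 held it 214 and 5 bases before the start, shown here with the neighbouring bases to set them beside the window of Irf1.
Ifnar2, chr16:91372559-91372587, plus strand: tgccaaggccTTCCTGGAAgaagagagta
Ifnar1, chr16:91485200-91485228, plus strand: ggcgggggcgTTCACGGAAggggcggggc
A match is a run of letters and not a measured binding site.

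Total counts per library lay between 15409767 and 26470392. Cdkn2a, the gene of P16Ink4a, whose counts also hold its other product p19Arf, went the way of the labels in every library. In Cd31+ cells it lay at 36.2 to 75.9 CPM (reads scaled to library size by TMM, in the usual CPM unit) with nc shRNA and 5.12 to 9.22 CPM with P16 shRNA, and at 32.5 to 79.9 CPM with empty vector and 137 to 330.1 CPM with P16. In Cd146+ cells the same 4 ranges were 94.5 to 196 CPM, 7.79 to 25.7 CPM, 69.6 to 104 CPM and 228 to 834 CPM. The study's methods name female mice, but 16 libraries carried Y-linked transcripts (2353 to 6116 reads over Ddx3y, Uty, Kdm5d and Eif2s3y, and 0 to 4 reads of Xist) and 8 carried Xist (6698 to 17948 reads, and 0 to 4 Y-linked reads). The 6 libraries of the silencing comparison in Cd31+ cells all carried Y-linked transcripts. In Cd146+ cells nc shRNA replicate 5 and P16 shRNA replicates 5 and 6 carried Xist, and the other 3 libraries of the silencing comparison carried Y-linked transcripts. Xist was also carried by Cd146+ empty vector replicates 4 and 5 and P16 replicate 5. In Cd31+ cells empty vector replicate 5 and P16 replicate 5 carried it. The endothelial markers Pecam1 and Cdh5 had medians of 145 and 110 CPM. Those of Kdr, Tek and Vwf were lower, at 7.79, 4.76 and 15.9 CPM. Clec4g and Stab2, which mark liver sinusoidal endothelium, had medians of 0 and 0.392 CPM. Lyve1, a marker of sinusoidal and lymphatic endothelium, had a median of 1.24 CPM and reached 7.53 CPM, with no library at 0. The mesenchymal genes Col1a1 and Acta2 had medians of 10943 and 2964 CPM over the 24 libraries. On the same list Pdgfrb had 313 CPM, but Des, Rgs5 and Lrat had 2.18, 1.08 and 0 CPM. General endothelial markers were thus present at unlike levels, and Clec4g and Stab2 were at or near 0. Col1a1 and Acta2 were present in every library, but not all genes of the mesenchymal list were. Since whole cultures were sequenced, fewer cells of a type and less RNA per cell cannot be told apart.

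By length, on the deposited FPKM scale, the receptor chains were the highest of the 9 genes. The median over the 24 libraries was 20.9 FPKM for Ifngr1, 15.6 FPKM for Ifnar1, 13.4 FPKM for Ifnar2 and 12.1 FPKM for Irf3. It was 5.77 FPKM for Irf9, 5.74 FPKM for Stat2, 4.09 FPKM for Irf1 and 1.98 FPKM for Irf7, and Ifnb1 had a median of 0. The ranges of neighbours in this order overlapped throughout. The genes also differed in how much they varied. Between the lowest and the highest library, Ifngr1, Ifnar1, Ifnar2 and Irf3 spanned 1.70-, 1.79-, 2.11- and 2.37-fold on the CPM scale. Irf1 spanned 5.69-fold, Irf9 10.2-fold, Stat2 13.2-fold and Irf7 127-fold.

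**Figure D1:**
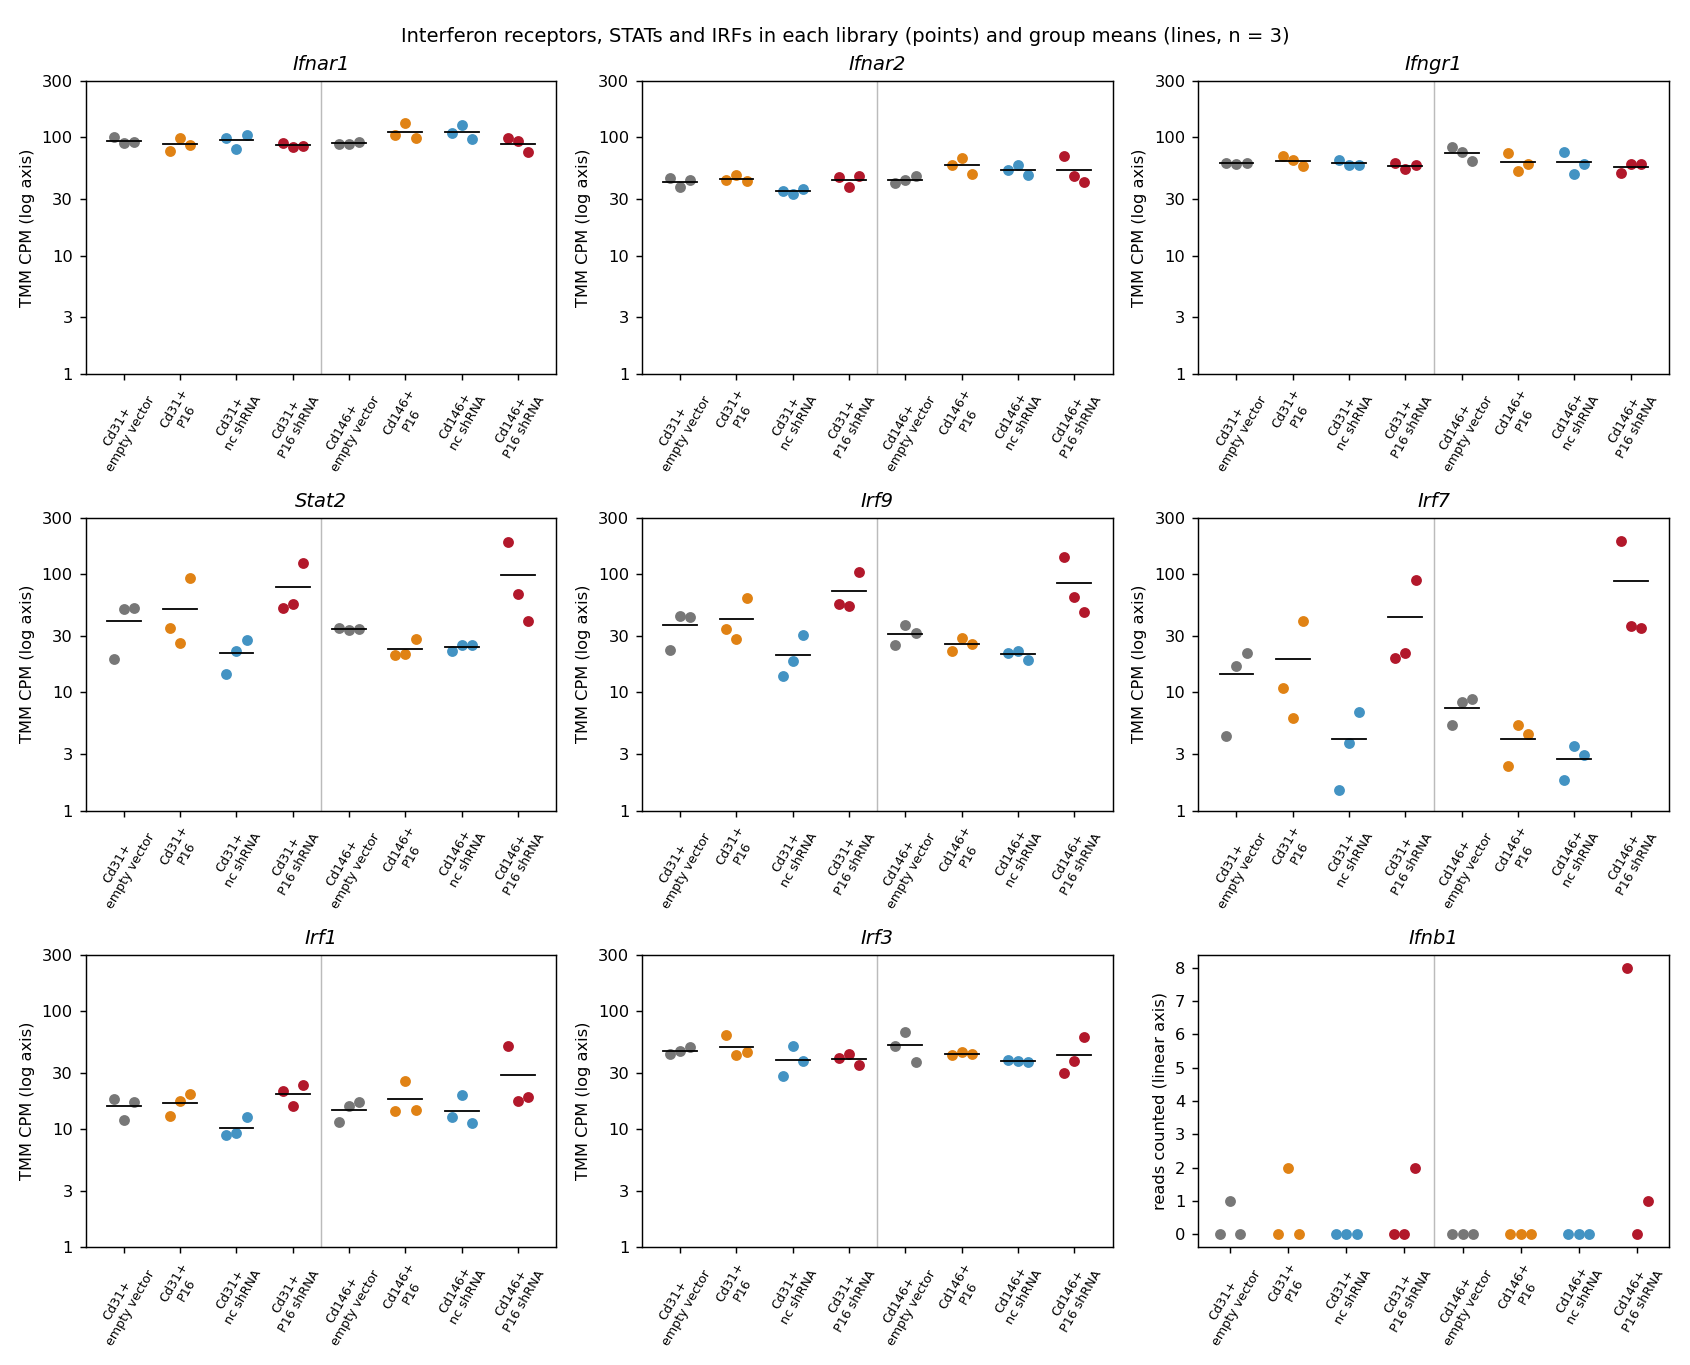
Level of each of the 9 genes in every library, as TMM CPM on a log axis (Ifnb1 as reads counted on a linear axis). Points are libraries and black lines are group means (n = 3). The receptor chains and Irf3 stay within 28.1 and 133 CPM, whereas Irf7 runs from 1.495 to 190 CPM and its points with P16 shRNA lie above those with nc shRNA in both populations.

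Ifnb1, which codes for interferon beta (chromosome 4, 88440262 to 88441011, minus strand in the deposited table), was at or near 0 in every library. It had 14 reads over all 24 libraries. None of the 6 nc shRNA libraries held a read. The P16 shRNA libraries of Cd146+ cells held 8, 0 and 1 reads in replicates 3, 5 and 6, and those of Cd31+ cells held 0, 0 and 2 reads in replicates 1, 2 and 3. The remaining 3 reads lay in Cd31+ empty vector replicate 2 (1 read) and Cd31+ P16 replicate 3 (2 reads). A count of 0 allows up to 3 reads in a library, which is 0.113 to 0.195 CPM at these depths and covers counting error only. Only the library with 8 reads, at 0.348 CPM, lay above that limit, and it was also the library with the highest Irf7, Irf9, Stat2 and Irf1. Ifnb1 did not pass the filter on low counts and was not tested in the main fits. It entered only the alternative fit of all genes with at least 1 count. There its log2 fold change of P16 shRNA over nc shRNA was 2.58 in Cd31+ cells (edgeR adjusted p = 0.633) and 4.58 in Cd146+ cells (edgeR adjusted p = 0.651), on the few reads given above. The 20 other interferon genes searched, the alpha family, Ifne, Ifnk, Ifnz, Ifng, Ifnl2 and Ifnl3, had at most 8 reads in a library, and none passed the filter.

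Ifnar1 and Ifnar2, the chains of the type I receptor, lie close together on chromosome 16 in the deposited table (91282126 to 91304329 and 91169671 to 91202477, plus strand). Ifnar1 was read at 99.5, 80.3 and 105 CPM in Cd31+ nc shRNA replicates 1, 2 and 3 and at 89.7, 83.4 and 84.0 CPM in the P16 shRNA replicates of the same numbers. In Cd146+ cells it was read at 109, 129 and 97.6 CPM in nc shRNA replicates 1, 3 and 5 and at 98.6, 93.0 and 74.6 CPM in P16 shRNA replicates 3, 5 and 6. The hairpin groups overlapped in both populations. The log2 fold change of Ifnar1 with P16 shRNA was -0.14 ± 0.12 (SE) in Cd31+ cells (edgeR adjusted p = 0.571) and -0.33 ± 0.19 in Cd146+ cells (edgeR adjusted p = 0.499). Here and below a fold change is P16 shRNA over nc shRNA, from edgeR's quasi-likelihood test on 3 against 3 libraries, with p-values adjusted by Benjamini-Hochberg across every gene in the fit, and a gene is called at an adjusted p under 0.05.

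Ifnar2 was read at 35.3, 33.4 and 36.7 CPM in Cd31+ nc shRNA replicates 1, 2 and 3 and at 46.1, 38.3 and 47.0 CPM with P16 shRNA. These groups did not overlap, and the difference was small, 1.25-fold (log2 0.33 ± 0.11, edgeR adjusted p = 0.181). With the replicate number as a block the adjusted p of Ifnar2 with P16 shRNA against nc shRNA was 0.0466 (edgeR). With empty vector Ifnar2 was 45.5, 37.8 and 43.4 CPM in Cd31+ replicates 1, 2 and 5. The mean with P16 shRNA was 1.04-fold that with empty vector. All nc shRNA libraries lay below those with empty vector, as for 615 of 14473 genes (log2 of nc shRNA over empty vector -0.26 ± 0.11, edgeR adjusted p = 0.992). This comparison of Ifnar2 is given after its values were seen. In Cd146+ cells Ifnar2 was read at 53.2, 58.2 and 47.7 CPM with nc shRNA and at 70.3, 46.9 and 41.7 CPM with P16 shRNA, so that 1 library lay above and 2 below all those with nc shRNA (log2 -0.0019 ± 0.23, edgeR adjusted p = 0.998). Without the high library, replicate 3, the log2 fold change of Ifnar2 in Cd146+ cells was -0.26, and the sign turned under several other alternatives.

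Ifngr1, the ligand-binding chain of the interferon gamma receptor (chromosome 10, 19467697 to 19485977, plus strand), varied least among the 8 genes that passed the filter. It lay between 49.2 and 83.6 CPM in all 24 libraries. With nc shRNA it was 64.3, 58.4 and 58.5 CPM in Cd31+ cells and 75.8, 49.2 and 59.6 CPM in Cd146+ cells. With P16 shRNA it was 60.7, 54.5 and 58.4 CPM in Cd31+ cells and 50.1, 59.5 and 59.1 CPM in Cd146+ cells, within or near the range of the controls. The log2 fold changes were -0.06 ± 0.10 (edgeR adjusted p = 0.796) and -0.13 ± 0.21 (edgeR adjusted p = 0.819).

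Stat2, the STAT protein of ISGF3 (chromosome 10, 128106428 to 128128718, plus strand), had 209, 486 and 491 reads in Cd31+ nc shRNA replicates 1, 2 and 3 and 976, 998 and 2703 reads in the P16 shRNA replicates. On the CPM scale this was 14.2, 22.6 and 27.6 against 52.3, 56.2 and 125. All 3 silenced libraries lay above the 3 controls, and replicate 3 stood apart from the other two. The fold was 3.65 (log2 1.87 ± 0.43, unadjusted p = 0.00464, edgeR adjusted p = 0.0996). In Cd146+ cells Stat2 was 22.4, 24.98 and 25.2 CPM in nc shRNA replicates 1, 3 and 5 and 187, 68.0 and 40.6 CPM in P16 shRNA replicates 3, 5 and 6. Again the groups did not overlap and replicate 3 was highest, with a fold of 4.06 (log2 2.02 ± 0.55, unadjusted p = 0.0091, edgeR adjusted p = 0.382). The mean with its SD was 21.5 ± 6.76 against 78.0 ± 41.1 CPM in Cd31+ cells and 24.2 ± 1.56 against 98.6 ± 78.0 CPM in Cd146+ cells (n = 3 each), so the spread was far larger with P16 shRNA.

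Irf9, the DNA-binding part of ISGF3 (chromosome 14, 55841028 to 55847487, plus strand), followed Stat2 closely. In Cd31+ cells it was 13.8, 18.3 and 30.7 CPM in nc shRNA replicates 1, 2 and 3 and 56.5, 53.7 and 105 CPM with P16 shRNA. In Cd146+ cells it was 21.8, 22.4 and 18.8 CPM in nc shRNA replicates 1, 3 and 5 and 141, 63.9 and 47.9 CPM in P16 shRNA replicates 3, 5 and 6. The hairpin groups did not overlap in either population. The fold was 3.44 in Cd31+ cells (log2 1.78 ± 0.39, unadjusted p = 0.00368, edgeR adjusted p = 0.0909) and 4.01 in Cd146+ cells (log2 2.00 ± 0.41, unadjusted p = 0.00205, edgeR adjusted p = 0.382).

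Irf7, the factor that extends the type I interferon response (chromosome 7, 140842619 to 140846394, minus strand), showed the largest difference of the 9 genes. It had 22, 81 and 121 reads in Cd31+ nc shRNA replicates 1, 2 and 3 and 362, 380 and 1922 reads with P16 shRNA. The CPM were 1.495, 3.77 and 6.80 against 19.4, 21.4 and 89.2, and the fold was 10.7 (log2 3.43 ± 0.83, unadjusted p = 0.00613, edgeR adjusted p = 0.109). In Cd146+ cells it had 33, 85 and 55 reads in nc shRNA replicates 1, 3 and 5 and 4353, 1036 and 722 reads in P16 shRNA replicates 3, 5 and 6. On the CPM scale these were 1.80, 3.55 and 2.94 against 190, 36.7 and 35.3, a fold of 31.3 (log2 4.97 ± 0.83, unadjusted p = 0.000761, edgeR adjusted p = 0.361). The lowest silenced library of Cd146+ cells was well above the highest control, and replicate 3 was again far above the other two.

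Irf1, the interferon gamma target (chromosome 11, 53660841 to 53669200, plus strand), differed less. In Cd31+ cells it was 8.97, 9.25 and 12.7 CPM with nc shRNA and 21.0, 15.7 and 23.5 CPM with P16 shRNA in replicates 1, 2 and 3. The groups did not overlap and the fold was 1.96 (log2 0.97 ± 0.21, unadjusted p = 0.00246, edgeR adjusted p = 0.0805). In Cd146+ cells it was 12.6, 19.4 and 11.3 CPM in nc shRNA replicates 1, 3 and 5 and 51.0, 17.5 and 18.6 CPM in P16 shRNA replicates 3, 5 and 6. Here the groups overlapped, and the fold of 2.01 rested mostly on replicate 3 (log2 1.01 ± 0.47, unadjusted p = 0.0725, edgeR adjusted p = 0.45). Without that library the log2 fold change of Irf1 in Cd146+ cells was 0.33.

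Irf3, the IRF of resting cells (chromosome 7, 44647072 to 44652272, plus strand), showed no such pattern. It was 28.1, 50.2 and 37.5 CPM with nc shRNA and 39.8, 43.2 and 35.0 CPM with P16 shRNA in Cd31+ cells. In Cd146+ cells it was 38.3, 37.7 and 36.8 CPM with nc shRNA and 30.1, 37.9 and 60.1 CPM with P16 shRNA. The groups overlapped in both populations, with log2 fold changes of 0.03 ± 0.21 (edgeR adjusted p = 0.96) and 0.19 ± 0.27 (edgeR adjusted p = 0.794). Irf3 overlaps the antisense gene Bcl2l12 by 1065 bases, and the sources do not make clear whether reads were counted by strand, so reads of the 2 genes may not be told apart there. Irf1 overlaps the antisense gene Gm17334 (177 reads in all), Irf7 overlaps Phrf1 by 45 bases and Irf9 overlaps Rnf31 by 123 bases.

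**Figure D2:**
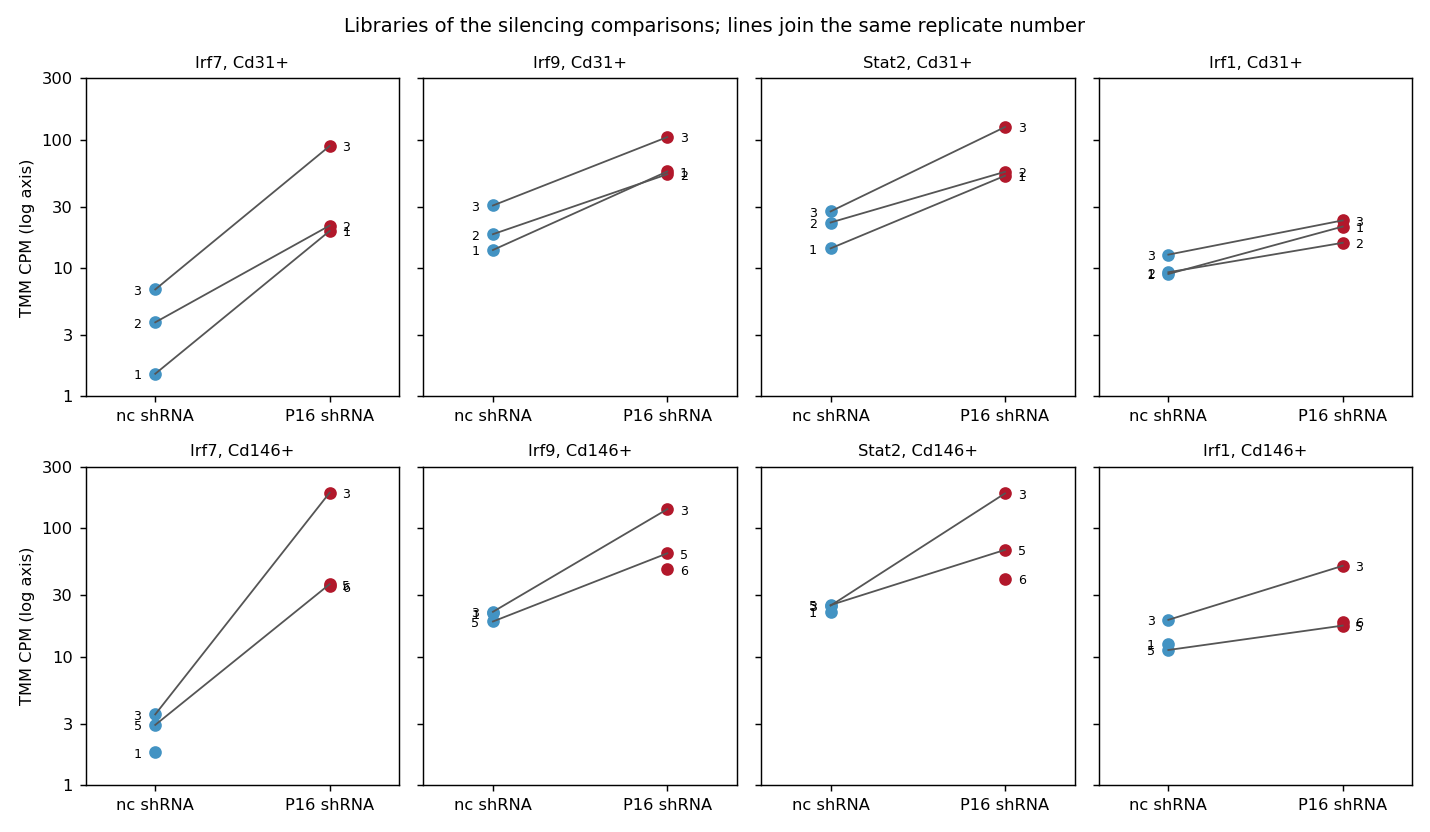
Level of Irf7, Irf9, Stat2 and Irf1 in the libraries of the silencing comparisons, as TMM CPM on a log axis, for Cd31+ (top) and Cd146+ (bottom) cells. Lines join nc shRNA and P16 shRNA libraries of the same replicate number, and every line goes up.

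With P16 silencing in Cd31+ cells, 0 of the 8 genes tested were called at an adjusted p under 0.05, against 186 of 14358 genes overall (1.30%). At an unadjusted p under 0.05, 5 of 8 (Irf7, Stat2, Irf9, Irf1 and Ifnar2) were higher, against 9.51% of all genes. The same 5 genes had groups that did not overlap, with the silenced libraries higher, as had 14.1% of all genes. The median log2 fold change was 0.65 over the 8 genes and 0.0034 over all genes tested. Libraries of 1 population with the same replicate number deviated together, so the fit with that number as a block stands beside the result. Within the 3 same-numbered pairs Irf7 differed by log2 2.51 to 3.71, Irf9 by 1.55 to 2.03, Stat2 by 1.31 to 2.19, Irf1 by 0.76 to 1.23 and Ifnar2 by 0.20 to 0.39, always upwards. With the block, edgeR called these 5 genes, as it called 8.92% of all genes upwards. The adjusted p-values of that edgeR fit were 7.7e-05 for Irf9, 0.00033 for Irf7, 0.00051 for Stat2, 0.0027 for Irf1 and 0.047 for Ifnar2. With the block in all 12 libraries of the population, edgeR called the same 5 genes and 7.95% of all genes upwards. DESeq2's Wald test without a block called Irf7, Irf9, Stat2 and Irf1, and 3.38% of all genes upwards.

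In Cd146+ cells P16 silencing gave 0 of 8 genes at an adjusted p under 0.05, in a comparison in which edgeR called 0 of 15124 genes (0%). At an unadjusted p under 0.05, Irf7, Irf9 and Stat2 were higher, 3 of 8 against 5.44% of all genes, and the same 3 had groups that did not overlap, as had 10.7% of all genes. The median log2 fold change was 0.60 over the 8 genes and 0.025 over all genes tested. Only the numbers 3 and 5 are shared by the hairpin groups here. Within these 2 pairs Irf7 differed by log2 3.64 and 5.74, Irf9 by 1.77 and 2.66, Stat2 by 1.43 and 2.91 and Irf1 by 0.63 and 1.40. With the block in the 2 groups edgeR called none of the 8 genes, and 4 were higher at an unadjusted p under 0.05, against 7.57% of all genes. With the block in all 12 libraries it called Irf9 (edgeR adjusted p = 0.0059), Irf1 (0.016) and Irf7 (0.019), and 3.53% of all genes upwards, and Stat2 had an adjusted p of 0.054. DESeq2's Wald test called Irf7, Irf9 and Stat2, and 0.906% of all genes upwards.

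Replicate 3 with P16 shRNA was the highest of its group for Stat2, Irf9, Irf7 and Irf1 in each population. Without it, the log2 fold changes in Cd31+ cells were 2.34 for Irf7, 1.40 for Irf9 and 1.34 for Stat2, and those in Cd146+ cells were 3.70, 1.42 and 1.17. In Cd146+ cells this library also had the lowest sum over the 14 endothelial markers, 310 CPM. The number 3 libraries of nc shRNA and P16 in Cd146+ cells had similar sums, 343 and 327 CPM, with Irf7 at 3.55 and 5.35 CPM, and the other 9 libraries of that population had at least 862 CPM. By sex-linked transcripts, the 2 silenced and 1 control libraries of Cd146+ cells that carried Xist differed by log2 3.62 for Irf7, 1.57 for Irf9, 1.10 for Stat2 and 0.68 for Irf1. The 1 silenced and 2 control libraries with Y-linked transcripts differed by log2 6.15, 2.68, 2.98 and 1.68. All 4 genes were thus higher with P16 shRNA in either kind of library. With a term for Y-linked transcripts in the fit of these 6 libraries, the log2 fold changes were 4.97 for Irf7, 2.15 for Irf9, 2.07 for Stat2 and 1.21 for Irf1 (unadjusted p from 0.000185 to 0.00475, edgeR adjusted p from 0.187 to 0.344).

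Summed endothelial markers in Cd31+ cells were 512 to 1028 CPM with nc shRNA and 305 to 629 CPM with P16 shRNA, and in Cd146+ cells 343 to 1765 CPM and 310 to 1783 CPM, so that the ranges overlapped. Summed macrophage markers in Cd31+ cells were 31.8 to 123 CPM with nc shRNA and 23.2 to 80.5 CPM with P16 shRNA, and in Cd146+ cells 23.9 to 249 CPM and 15.98 to 173 CPM. Summed mesenchymal markers were 17605 to 27084 CPM against 20287 to 33419 CPM in Cd31+ cells and 9765 to 19856 CPM against 18776 to 22784 CPM in Cd146+ cells. The sum over markers of plasmacytoid dendritic and lymphoid cells was higher with P16 shRNA, 107 to 347 CPM against 12.98 to 54.2 CPM in Cd31+ cells and 240 to 552 CPM against 19.5 to 62.4 CPM in Cd146+ cells. Nearly all of it was Bst2, which is itself an interferon-stimulated gene, and without Bst2 the sum was at most 3.00 CPM in the Cd31+ and 7.04 CPM in the Cd146+ libraries of the 2 hairpins. Within all 5 same-numbered pairs of both populations the endothelial and macrophage sums were lower and the mesenchymal sum was higher with P16 shRNA. In Cd31+ replicates 1, 2 and 3 the endothelial sum went from 512, 604 and 1028 CPM to 305, 523 and 629 CPM, and in Cd146+ replicates 3 and 5 from 343 and 1765 CPM to 310 and 1586 CPM. The macrophage sum went from 123, 53.9 and 31.8 CPM to 80.5, 33.4 and 23.2 CPM and from 23.9 and 249 CPM to 15.98 and 173 CPM. What part the makeup of the cultures had in the levels of the 9 genes was not tested.

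In Cd146+ cells the silenced libraries stood apart from those of all other constructs. The 3 P16 shRNA libraries of Irf7 (35.3 CPM and above), Irf9 (47.9 CPM and above) and Stat2 (40.6 CPM and above) lay above all 9 other Cd146+ libraries, whose highest values were 8.73, 37.5 and 34.9 CPM. In Cd31+ cells 1 of the 3 did, since P16 replicate 5 reached 40.3 CPM of Irf7, 63.0 CPM of Irf9 and 92.3 CPM of Stat2. Empty vector replicate 5, with 21.6 CPM of Irf7, also lay above the lowest silenced library. The levels of Irf7, Irf9 and Stat2 without silencing were thus not uniform in Cd31+ cells, and nc shRNA had the lowest mean there. Set against the empty vector mean of Cd31+ cells, the P16 shRNA mean was 3.04-fold for Irf7, 1.94-fold for Irf9, 1.92-fold for Stat2 and 1.28-fold for Irf1. In Cd146+ cells the same folds were 11.7, 2.68, 2.88 and 1.98. These folds are smaller than those over nc shRNA, and the 2 constructs differ in their plasmid.

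P16 overexpression was compared with its empty vector. In Cd31+ cells Irf7, chosen after its values were seen, was 4.32, 16.9 and 21.6 CPM in empty vector replicates 1, 2 and 5 and 10.9, 6.06 and 40.3 CPM in P16 replicates 2, 3 and 5. These groups overlapped, as they did for the other genes, and the log2 fold changes of the 8 genes ran from -0.09 to 0.43. By edgeR 0 of 8 had an unadjusted p under 0.05, against 3.73% of all genes, and 0 were called by edgeR or DESeq2. With the block in all 12 libraries the log2 fold changes of Irf7, Stat2 and Irf9 turned from 0.43, 0.35 and 0.19 to -0.25, -0.055 and -0.10.

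In Cd146+ cells 2 of 8 genes had an unadjusted p under 0.05 with P16 overexpression, against 3.53% of all genes, and edgeR and DESeq2 called 0 of the 8. Stat2 was 34.9, 33.9 and 34.1 CPM in empty vector replicates 2, 4 and 5 and 20.6, 21.0 and 28.4 CPM in P16 replicates 1, 3 and 5 (log2 -0.55 ± 0.18, unadjusted p = 0.0196, edgeR adjusted p = 0.986). Ifnar2 was 40.9, 43.8 and 47.5 CPM with empty vector and 58.9, 66.8 and 48.7 CPM with P16 (log2 0.40 ± 0.15, unadjusted p = 0.0413, edgeR adjusted p = 0.986). The groups did not overlap for either gene. With scaling within these 6 libraries, 2 of 8 genes (Stat2 and Irf7) had the P16 libraries lower without overlap, against 4.85% of all genes, and 2 of 8 (Ifnar1 and Ifnar2) had them higher, against 3.84%. On the CPM scale over all 24 libraries Irf7 overlapped, since P16 replicate 3 held 5.35 CPM and empty vector replicate 2 held 5.26 CPM. Irf7 and Ifnar1 are named here after their values were seen. Both unadjusted calls were lost without P16 replicate 1, P16 replicate 3 or empty vector replicate 5. The 2 groups share only the replicate number 5. Empty vector replicates 4 and 5 and P16 replicate 5 carried Xist, so sex-linked transcripts were not balanced here. In the fit of 12 libraries with the block, Irf1 turned from 0.29 to -0.37 and Irf3 from -0.24 to 0.29.

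**Figure D3:**
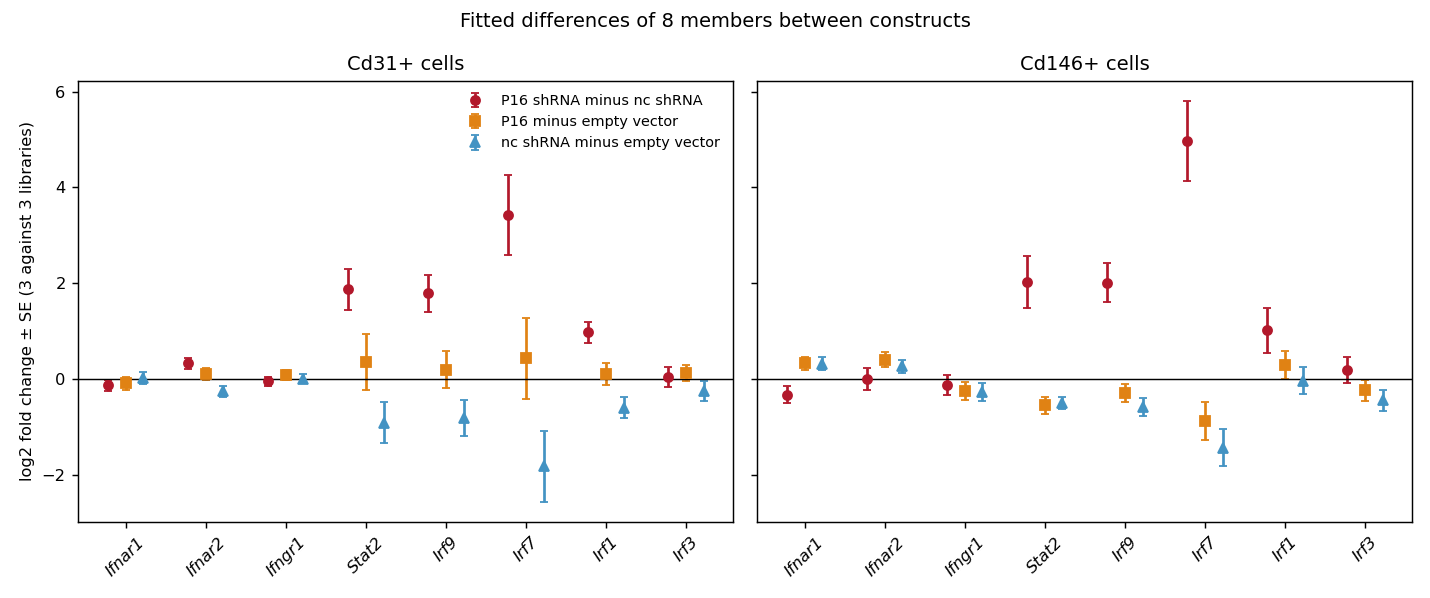
Fitted log2 fold change ± SE of 8 of the genes for P16 shRNA against nc shRNA (red circles), P16 against empty vector (orange squares) and nc shRNA against empty vector (blue triangles), 3 against 3 libraries, in Cd31+ (left) and Cd146+ (right) cells. With P16 shRNA, Irf7 stands at 3.43 and 4.97, whereas the orange squares of all genes lie between -0.88 and 0.43.

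The 2 controls were also compared with each other. The nc shRNA libraries of this comparison are those of the silencing comparison, and the empty vector libraries are those of the overexpression comparison. In Cd31+ cells Irf7 (log2 -1.83 ± 0.74, unadjusted p = 0.0484, edgeR adjusted p = 0.992) and Irf1 (log2 -0.60 ± 0.22, unadjusted p = 0.0308, edgeR adjusted p = 0.992) were lower with nc shRNA than with empty vector. That is 2 of 8 genes, against 1.73% of all genes in that direction. Irf1 was 18.05, 11.95 and 17.0 CPM in empty vector replicates 1, 2 and 5, and both genes overlapped with their nc shRNA values. Without nc shRNA replicate 1 or without empty vector replicate 5, 0 of 8 genes had an unadjusted p under 0.05. With the block in these 2 groups, where only the numbers 1 and 2 are shared, edgeR called Irf7, Irf9, Stat2 and Irf1 lower (edgeR adjusted p from 3.4e-11 to 0.0272), against 1.90% of all genes. That fit rests on 2 pairs. Its small p-values come from a spread pooled over genes and do not measure the spread of these genes between libraries. With the block in all 12 libraries edgeR called 0 of the 8.

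In Cd146+ cells nc shRNA gave lower values than empty vector for 3 of 8 genes at an unadjusted p under 0.05, against 2.13% of all genes, and edgeR called 0. These were Stat2 (log2 -0.51 ± 0.13, unadjusted p = 0.00603), Irf7 (log2 -1.44 ± 0.38, unadjusted p = 0.00828) and Irf9 (log2 -0.59 ± 0.19, unadjusted p = 0.019), each with an edgeR adjusted p of 0.907. Empty vector replicates 2, 4 and 5 held 5.26, 8.34 and 8.73 CPM of Irf7 and 25.1, 37.5 and 31.7 CPM of Irf9, all above the 3 nc shRNA libraries. The same 3 genes had groups that did not overlap in this direction, as had 4.75% of all genes. Empty vector replicates 4 and 5 and nc shRNA replicate 5 carried Xist, so sex-linked transcripts were not balanced between these groups. Empty vector replicate 4 also had a mesenchymal sum of 6419 CPM, against 21475 and 18036 CPM in replicates 2 and 5. What part the makeup of the cultures had was not tested. The remaining members of both comparisons had log2 fold changes from -0.92 to 0.31.

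Between the populations, with both control constructs in each, Ifnar2 was 1.26-fold higher in Cd146+ than in Cd31+ cells (log2 0.33 ± 0.11, unadjusted p = 0.0117, edgeR adjusted p = 0.191). It was the 1 gene of 8 with an unadjusted p under 0.05, in a comparison in which 17.5% of all genes had one, and the log2 differences of the other 7 ran from -0.74 to 0.20. The difference between populations in the effect of silencing was tested as an interaction over all 24 libraries. By edgeR 0 of 8 genes had an unadjusted p under 0.05 for it, against 1.20% of all genes, and the differences (Cd146+ minus Cd31+) ran from -0.32 to 1.55 on the log2 scale. The highest was that of Irf7, named for that reason, 1.55 ± 1.16 (unadjusted p = 0.197, edgeR adjusted p = 1.00), so a stronger effect in either population was not shown. For overexpression the differences ran from -1.29 to 0.42, again with 0 of 8 at an unadjusted p under 0.05, against 3.82% of all genes. DESeq2 called 0 of the 8 genes in either interaction.

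The other genes of the pathway were taken from lists of its roles. The counts below stand against the shares of all genes higher at an unadjusted p under 0.05 given above, and against 10.3% (Cd31+) and 6.18% (Cd146+) of all genes lower. Among the receptor chains and kinases, 0 of 6 were higher and 1 of 6 was lower at an unadjusted p under 0.05 in each silencing comparison. That gene was Jak1, a kinase of both receptors, at log2 -0.42 ± 0.11 in Cd31+ and -0.48 ± 0.19 in Cd146+ cells. Ifngr2, the partner chain of Ifngr1, stood at 0.03 ± 0.13 and 0.04 ± 0.15, and Jak2 and Tyk2, kinases of the gamma and type I receptors, at -0.08 and -0.18 in Cd31+ and -0.45 and -0.37 in Cd146+ cells. None of the 6 had a log2 fold change above 0.05 in either population. With the replicate block 1 of the 6 was called lower in Cd31+ cells, against 1422 of 14358 genes in the 2 groups and 1359 of 15426 in 12 libraries. In Cd146+ cells 0 of the 6 were called with the block.

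Of 9 genes upstream of interferon, 3 were higher in Cd31+ cells at an unadjusted p under 0.05 and 0 in Cd146+ cells. Sting1, the adaptor of cytosolic DNA sensing, stood at log2 0.65 ± 0.24 and 0.58 ± 0.25. Myd88 (0.55) and Cgas (0.56) were the other two in Cd31+ cells, named after their values were seen. Mavs, Tbk1 and Traf3, which carry the signal of RNA and DNA sensors towards Irf3 and Irf7, lay between -0.15 and -0.09 in Cd31+ and between -0.44 and -0.16 in Cd146+ cells. The median log2 fold change of the list was -0.0069 and -0.12. The block in 12 libraries gave 2 of the 9 called higher in Cd31+ and 1 in Cd146+ cells.

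Among the other STATs and IRFs, 7 of 10 passed the filter. In Cd31+ cells 1 was higher and 2 were lower at an unadjusted p under 0.05, and in Cd146+ cells 1 was higher and 0 were lower. The gene that was higher in both was Irf5, at log2 0.79 ± 0.28 and 0.86 ± 0.33. Irf2 (-0.33) and Stat5a (-0.35) were the 2 lower in Cd31+ cells, and Irf5 and Stat5a are named here after their values were seen. Stat3, which mediates signals of interleukins, stood at 0.02 and -0.25, Stat6, which mediates that of interleukin-4, at -0.20 and -0.51, and Stat5b at -0.19 and -0.38. In each population 1 gene of this list was called higher with the block in 12 libraries.

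Of 11 negative regulators, 3 were higher and 1 lower in Cd31+ cells and 2 were higher and 0 lower in Cd146+ cells at an unadjusted p under 0.05. Usp18, which binds Ifnar2 and dampens the type I receptor and is itself interferon-induced, was higher in both, at log2 4.46 ± 1.16 (edgeR adjusted p = 0.12) and 5.92 ± 1.01 (edgeR adjusted p = 0.369). The others higher were the phosphatase gene Ptpn1 (0.42) and the feedback inhibitor gene Socs3 (0.49) in Cd31+ cells and Socs1 (1.47) in Cd146+ cells. Usp18 and Socs1 are named here after their values were seen. Irf2bp2, a partner of Irf2, was lower in Cd31+ cells (-0.29), and the phosphatase gene Ptpn11 stood at -0.10 and -0.34. Of the 11, 3 were called higher in Cd31+ and 2 in Cd146+ cells with the block in 12 libraries.

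The targets of ISGF3, of which Stat2 and Irf9 are parts, were higher nearly as a whole. In Cd31+ cells 9 of 10 tested (of 12 listed) and in Cd146+ cells 10 of 11 were higher at an unadjusted p under 0.05, and 0 were lower. The median log2 fold change of the targets tested was 4.34 and 5.65, and 0 were called at an adjusted p under 0.05 in the fit without a block. With the block, 9 were called higher in Cd31+ cells in the 2 groups and in 12 libraries, and in Cd146+ cells 0 in the 2 groups and 5 in 12 libraries. With nc shRNA against empty vector the same targets had a median of -2.11 in Cd31+ cells (1 of 10 at an unadjusted p under 0.05) and -1.55 in Cd146+ cells (4 of 9). In Cd31+ cells 7 were called lower with the block in the 2 groups, a fit that rests on 2 pairs, but 0 in 12 libraries. Bst2, a membrane protein that holds virions at the cell surface, stood at 2.69 ± 0.73 and 3.38 ± 0.54, Isg15, a ubiquitin-like modifier, at 4.69 ± 1.09 and 6.18 ± 0.81, and Ifit1, which binds foreign RNA, at 4.59 ± 1.28 and 5.65 ± 1.03. Ifit3 stood at 3.88 ± 1.25 and 4.74 ± 1.10. The exception, Ifit2, named after its values were seen, stood at 0.41 and 1.19. Of the targets of interferon gamma, 7 of 10 tested in Cd31+ cells and 6 of 10 in Cd146+ cells were higher at an unadjusted p under 0.05. All 10 had a log2 fold change above 0 in each population, with medians of 2.72 and 2.76. The same filter chose these 10. Without a block 0 were called at an adjusted p under 0.05. The block in 12 libraries called 10 of 10 higher in Cd31+ and 2 of 10 in Cd146+ cells, and with nc shRNA against empty vector the medians were -1.49 and -0.92. Irgm1, a GTPase of cell-autonomous immunity, stood at 1.56 ± 0.58 and 1.36 ± 0.48, and Gbp2 and Gbp3, guanylate-binding proteins, at 2.60 and 3.57 in Cd31+ and 1.95 and 2.69 in Cd146+ cells. In Cd31+ cells the mean of Gbp2 was 3.79 CPM with nc shRNA, 22.8 with P16 shRNA, 25.5 with empty vector and 32.4 with P16. That of Gbp3 was 2.66, 31.7, 24.4 and 34.9 CPM, so nc shRNA was low beside all other constructs. In Cd146+ cells both means were highest with P16 shRNA (78.8 and 85.4 CPM), against 38.9 and 24.7 CPM with empty vector. Tap1, a peptide transporter of antigen presentation, stood at 1.09 and 1.32. With P16 overexpression 0 of 10 tested ISGF3 targets had an unadjusted p under 0.05 in either population.

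**Figure D4:**
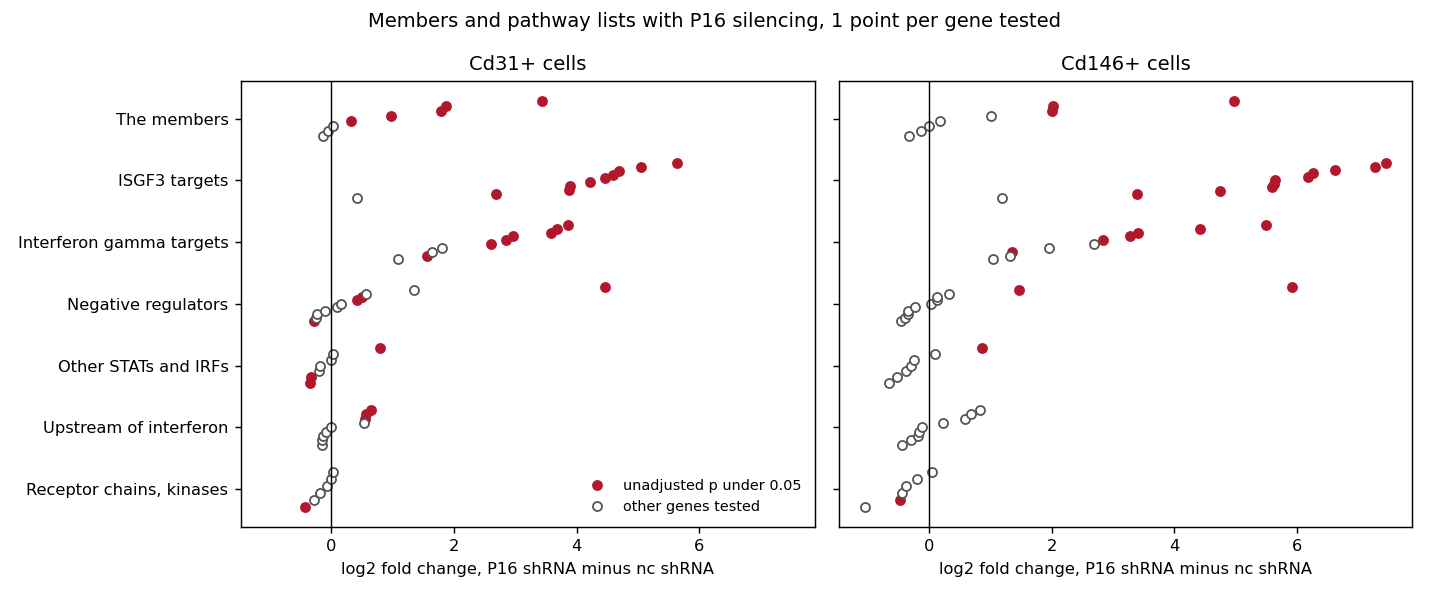
Log2 fold change with P16 shRNA against nc shRNA, 1 point per gene tested, for the members and 6 pathway lists in Cd31+ (left) and Cd146+ (right) cells. Filled points have an unadjusted p under 0.05. ISGF3 targets (medians 4.34 and 5.65) lie furthest to the right, and receptor chains and kinases lie near or below 0. Genes near 0 with nc shRNA could enter through their P16 shRNA libraries alone.

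Across the 24 libraries the most alike genes were ranked by Spearman correlation of log2 CPM among 60 genes of these lists. The libraries share populations, replicate numbers and constructs, so the values are a description with no p. Irf7 and Irf9 had a rho of 0.973 with each other, and Stat2 had 0.930 with Irf7 and 0.918 with Irf9. The genes most like Irf7 were Isg15 (0.987), Oasl2 (0.983) and Usp18 (0.981). Oasl2, Isg15 and Usp18 led for Irf9, and Usp18, Ifit1 and Isg15 led for Stat2. Irf1 was less like these 3, with 0.443 to 0.654, and was most like Irgm1 (0.764). Ifnar1 was most like Il10rb (0.735), Ifnar2 most like Socs3 (0.855) and Irf3 most like Irf2bp1 (0.781), and for Ifngr1 no gene passed 0.407 (Mavs).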

How the data were processed

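Messenger RNA of 24 cultures was sequenced, 3 libraries for each of 8 groups. The authors deposited 1 table with raw read counts per gene and FPKM (reads scaled by gene length and depth). The submitters' processing notes name fastp and mm9, but the table names no build, its coordinates differ from GRCm38.p6, and the aligner and counter are not given in the sources used here. Columns with the authors' own fold changes and p-values were not used. Counts were tested with edgeR 4.0.16 (R 4.3.3; filterByExpr, TMM, quasi-likelihood with robust dispersion, adjustment over all genes tested), on the 6 libraries of the 2 groups compared, after a test on simulated data. DESeq2 1.42.0, other filters and scalings, a term for Y-linked transcripts, left-out libraries and a replicate block were alternatives. Total counts were 15409767 to 26470392. Levels are TMM CPM and the deposited FPKM. Groups follow the labels. Nothing in the labels says that replicates came from separate animals, so p-values measure the spread between these libraries. Groups that hold both Xist and Y-linked libraries drew on more than 1 animal, and for the others the spread may be technical. Same-numbered libraries of a population deviated together (median r 0.516 over 13 pairs in Cd31+ and 0.696 over 10 pairs in Cd146+ cells, against medians of -0.161 and -0.0677 for different numbers). The 2 kinds of pair overlapped. The lowest r was 0.343 and 0.373 for the same number, and the highest was 0.381 and 0.448 for different numbers. On this ground, which the labels do not state, the numbers were taken to pair the libraries of a population. All 9 genes were named with every value of the hairpin libraries, and with those of the other constructs only in part. From each pathway list the 4 most abundant genes were named, and in comparisons other than silencing only members at an unadjusted p under 0.05, with exceptions marked in the text. Members and lists were chosen with earlier results of these data known.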

Additional observations from a re-analysis of the deposited data

How the results depend on the processing

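With P16 silencing in Cd31+ cells, the genes called went from 0 to 1 with all genes of at least 1 count (630 genes called higher and 664 lower of 34699). They went to 1 with a term for Y-linked transcripts (108 and 159 of 14358), 4 with DESeq2's Wald test, and 5 with the replicate block in the 2 groups or in 12 libraries. Every library of this comparison carried Y-linked transcripts, so the Y-linked term could not separate the sexes there. Shares over all genes for the Wald test and the block stand above. In Cd146+ cells the members called went from 0 to 1 in the fit of 12 libraries (5 genes called higher and 6 lower of 15915). They went to 3 with the Wald test and 3 with the replicate block in 12 libraries. In that block fit 4 members were higher at an unadjusted p under 0.05, against 2146 of 15915 genes, and 1 was lower, against 2216. The lower member was Ifnar1 (log2 -0.24, edgeR unadjusted p = 0.0457). For nc shRNA against empty vector in Cd31+ cells the block in the 2 groups called 4, in a fit that rests on 2 pairs.

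At an unadjusted p under 0.05, P16 overexpression in Cd146+ cells had 3 genes with the Wald test (353 higher and 439 lower of 14860 genes in all) and 1 with the Y-linked term (33 and 161 of 14860). It had 0 with 12 libraries, 0 with the block there, and 0 to 2 with 1 library left out (82 to 596 higher and 104 to 696 lower of 15137 to 15572). The nc shRNA against empty vector comparison in Cd31+ cells had 1 with all genes (417 and 560 of 31930) and 4 with the Wald test (181 and 288 of 14473). It had 0 with the Y-linked term and 4 with the block in the 2 groups (837 and 1063 of 14473). With 1 library left out it had 0 to 3 (153 to 281 higher and 200 to 353 lower of 14822 to 14992). That comparison in Cd146+ cells had 1 with 12 libraries (301 and 399 of 15915). The comparison of populations had 2 with the block (1411 and 1474 of 15676). That block joins equal replicate numbers across the 2 populations, although pairing was checked only within a population. With 1 library left out this comparison had 1 to 2 (922 to 1574 higher and 1033 to 1676 lower of 16078 to 16276). The difference in silencing had 0 to 1 with 1 library left out. It had 1 without Cd31+ P16 shRNA replicate 3 (122 and 88 of 16962) and 1 without Cd146+ P16 shRNA replicate 3 (207 and 492 of 16985). The difference in overexpression had 1 with DESeq2 size factors (337 and 297 of 16524) and 1 with the Wald test (382 and 381 of 16524). With 1 library left out it had 0 to 2 (187 to 618 higher and 172 to 658 lower of 16927 to 17017).

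Small log2 fold changes with silencing turned sign. Irf3 in Cd31+ cells was -0.087 with the Y-linked term and -0.17 to 0.25 with 1 library left out. In Cd146+ cells Irf3 was -0.14 with the block in 2 groups, -0.16 in 12 libraries and -0.17 to 0.38 with 1 library left out. Ifnar2 there was 0.13 with the Y-linked term, 0.00033 with 12 libraries, 0.12 and 0.13 with the block, and -0.26 to 0.11 with 1 library left out. Ifngr1 there was 0.012 with the block in 2 groups and -0.27 to 0.034 with 1 library left out. The cause of these changes was not tested. Irf7, Irf9, Stat2 and Irf1 kept their direction with silencing under every alternative run. Among the 8 genes the replicate block changed no other call, and its sign changes with overexpression and its calls in the pathway lists stand beside those results. Ifnb1 and the other interferon genes did not pass the filter on low counts. The replicate block could not be fitted within the 2 groups for P16 or nc shRNA against empty vector in Cd146+ cells, which share only number 5.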
